A study of Mus musculus with 12 samples.

Results

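Cep83 and 9 further genes of the centriole appendages were followed over 12 expression arrays of mouse blood monocytes. The 10 genes, named by a list of proteins of the distal and subdistal appendages, were all found among the 23279 genes measured, each as 1 feature carrying its Entrez gene number: Cep83 (77048), Cep89 (72140), Sclt1 (67161), Fbf1 (217335), Cep164 (214552), Ttbk2 (140810), Cby1 (73739), Odf2 (18286), Cep128 (75216) and Nin, the gene of ninein (18080). Cep83 was chosen by its TRIM33 minus WT difference on these same arrays, so its genotype values are given as a description and support nothing. The other 9 were listed for their place in the centriole.

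The arrays compare 6 samples labelled TRIM33 with 6 labelled WT, all from C57BL/6 LyzCre mice of 6 to 8 weeks. LyzCre places the Cre recombinase under a lysozyme gene, which is active in myeloid cells. The sources used here do not say if WT mice carry Cre, nor how completely Trim33 was deleted in the sorted cells. The cells are described as Ly6C-high blood monocytes sorted for CD11b and CD115, although 1 protocol text of the same samples describes a sort of CD4 T cells. The study concerns how inflammation of the colon resolves. The titles call 2 TRIM33 and 2 WT arrays mixes, with no word on what was mixed, and nothing in the labels ties an array to a separate animal. The p-values below therefore measure the spread between arrays, which may be technical. All values are on the log2 scale as the authors deposited them, so a difference of 1 is a doubling of signal. Levels are compared between arrays for 1 gene and not between genes, though some values near or below the array median are marked as dim.

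A centriole that has matured into a mother centriole carries 2 sets of appendages. The distal appendages fix the centriole to a membrane so that a primary cilium can grow, and they are built in a known order: CEP83 sits at their base, CEP89 and SCLT1 need it, FBF1 and CEP164 come further out, and CEP164 brings in the kinase TTBK2 and the protein Chibby (Cby1). The subdistal appendages, which hold ODF2, CEP128 and ninein, anchor microtubules. Centrioles and their appendages are renewed once per cell cycle, and leukocytes are generally described as keeping centrioles without growing a primary cilium.

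The targeted gene followed the labels: Trim33 read 6.06 to 6.23 on the TRIM33 arrays and 6.81 to 7.05 on the WT arrays. The genes of the sorted antigens were detected throughout, with Itgam (CD11b) at 9.40 to 10.7, Csf1r (CD115) at 9.73 to 11.1 and Ly6c2 at 12.2 to 12.5. The arrays fell into 2 sets by average-linkage clustering of all features, each with 3 TRIM33 and 3 WT arrays, and these sets run through every result below. In the Y set, which holds all 4 mixes, the Y-linked Kdm5d read 5.73 to 6.77, against 2.47 to 3.27 in the Xist set. Xist, the RNA of the inactive X chromosome, read 3.36 to 3.64 in the Y set and 9.01 to 10.2 in the Xist set. By these genes the Y set reads as male and the Xist set as female, although no label used here gives a sex. A difference between the sets therefore cannot be told apart from one between sexes. The mean of 18 cell cycle genes was 4.32 to 5.39 in the Y set and 9.11 to 9.17 in the Xist set. Genes of the sorted antigens differed too. Itgam read 10.4 to 10.7 in the Y set and 9.40 to 9.88 in the Xist set, and Csf1r 10.9 to 11.1 and 9.73 to 10.1, while Ly6c2 overlapped. Pairs of arrays from 1 set correlated at 0.986 to 0.992 and pairs from different sets at 0.955 to 0.967. Among Y-set arrays TRIM33 replicate 2 differed from the rest, with a cell cycle mean of 5.39 and a neutrophil marker mean of 5.98, against 4.32 to 4.65 and 4.96 to 5.30 on the other 5 arrays. Genotype is balanced over the sets, so blocking on the set changes the errors and leaves the differences as they are.

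Cep83 encodes the coiled-coil protein at the root of the distal appendages. On the Y-set arrays it read 8.63, 8.61 and 8.24 in TRIM33 samples, against 6.78, 6.92 and 6.49 in WT samples. On the Xist-set arrays it read 8.43, 8.61 and 8.35 in TRIM33 samples, against 7.33, 7.63 and 7.22 in WT samples. The genotypes did not overlap in either set or over all 12 arrays, with a gap of 0.61 between the lowest TRIM33 and the highest WT array.

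**Figure D1:**
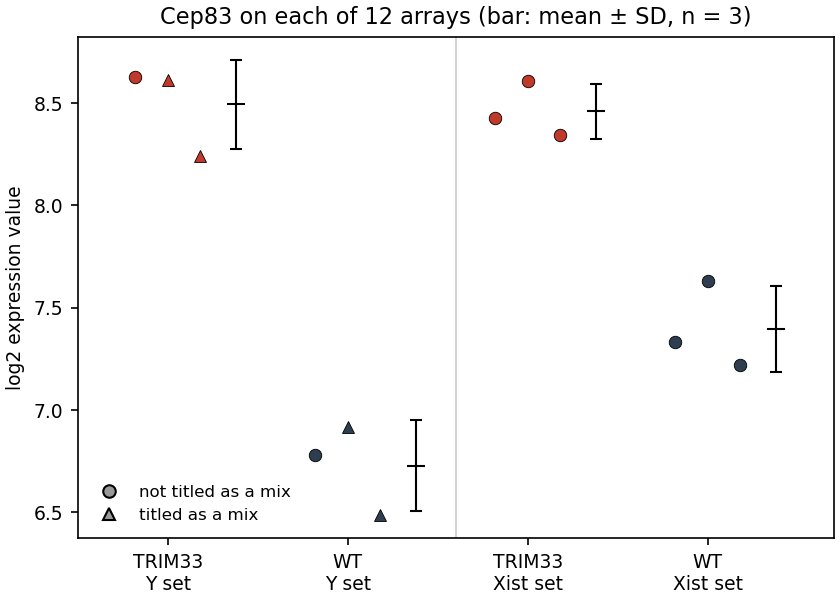
Cep83 on each of the 12 arrays, log2 expression value on the vertical axis, with TRIM33 left of WT in each array set, triangles for mixes and the bar for the mean ± SD of 3 arrays. TRIM33 arrays sit between 8.24 and 8.63 in both sets, WT arrays at 6.49 to 6.92 in the Y set and 7.22 to 7.63 in the Xist set.

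Over all arrays Cep83 averaged 8.48 ± 0.163 in TRIM33 samples and 7.06 ± 0.413 in WT samples (SD, n = 6 each), a difference of 1.41 (SE 0.169), which is 2.67-fold. It is the 1 member of 10 among the 5 genes (0.0215% of 23279) that passed limma at a Benjamini-Hochberg adjusted p of 0.05. It is also the 1 member whose genotypes did not overlap over all arrays, as 0.198% of all genes did. Nothing is read from either count, since this contrast chose the gene. The mixes did not stand apart: TRIM33 mixes read 8.24 and 8.61 beside 8.63 on the TRIM33 array of the Y set not titled as a mix, and WT mixes 6.49 and 6.92 beside 6.78.

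The order of the 4 groups of 3 arrays was TRIM33 in the Y set (8.49 ± 0.219), TRIM33 in the Xist set (8.46 ± 0.133), WT in the Xist set (7.40 ± 0.210) and WT in the Y set (6.73 ± 0.221; SD, n = 3 each). The TRIM33 groups differed by 0.03, less than their spread. The WT groups differed by -0.67, Y set minus Xist set, and their ranges did not overlap. The genotype difference was accordingly 1.77 (SE 0.162), or 3.40-fold, in the Y set and 1.06 (SE 0.149), or 2.09-fold, in the Xist set. Within the Y set alone limma called 8 genes (0.0344%), Cep83 as the 1 member, and within the Xist set alone 3 genes (0.0129%), with 0 members. Of the other 9 members, 1 had an unadjusted p under 0.05 in limma in the Y set, Sclt1, against 4.57% of all genes. In the Xist set it was 1 of 9, Cep164, against 4.99%. Cep83 is left out of these counts, since the genotype contrast chose it.

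Whether the genotype difference was unequal between the sets was fitted as an interaction. For Cep83 this uses the same values that chose the gene, and the sets come from these same arrays, so it is a description. For Cep83 the Y-set difference exceeded the Xist-set difference by 0.70 (SE 0.224, 95% interval 0.22 to 1.18). It did not pass over all genes (limma, unadjusted p = 0.00772, Benjamini-Hochberg adjusted p = 0.996). Of all genes, 1 passed this test (0.00430%) and 4.21% had an unadjusted p under 0.05 in limma. Among the 9 members besides Cep83 it was 1, Cep164. Without TRIM33 replicate 2 the value for Cep83 was 0.64 (limma, unadjusted p = 0.0205).

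A RefSeq window of the Cep83 promoter is shown because this gene carries the genotype difference. Windows of Sclt1, Cep128 and Cep164 are shown beside it because Sclt1 and Cep128 had the largest differences between the array sets among the members, both higher in the Xist set, and Cep164 had the largest difference toward the Y set, though with overlap. Each runs 5′ to 3′ on the gene's strand in GRCm38.p6, with 250 bases before and 50 bases after an annotated transcript start. Capitals mark any match, on either strand, to 5 short motifs: the CCAAT box (CCAAT), the cell cycle element CHR (TTTGAA), an E2F core (GCGGGAA), a SMAD box (CAGAC) and the X-box core bound by RFX factors (GTTGCC). The Cep83 window lies at chr10:94688540-94688839 (plus strand), that of Sclt1 at chr3:41742465-41742764 (minus strand), that of Cep128 at chr12:91384360-91384659 (minus strand) and that of Cep164 at chr9:45828614-45828913 (minus strand).
Cep83: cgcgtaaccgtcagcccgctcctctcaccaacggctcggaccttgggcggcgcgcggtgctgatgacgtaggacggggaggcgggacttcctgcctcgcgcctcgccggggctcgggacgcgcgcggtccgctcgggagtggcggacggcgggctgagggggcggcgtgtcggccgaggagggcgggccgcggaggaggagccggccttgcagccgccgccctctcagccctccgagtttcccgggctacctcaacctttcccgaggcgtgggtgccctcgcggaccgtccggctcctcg
Sclt1: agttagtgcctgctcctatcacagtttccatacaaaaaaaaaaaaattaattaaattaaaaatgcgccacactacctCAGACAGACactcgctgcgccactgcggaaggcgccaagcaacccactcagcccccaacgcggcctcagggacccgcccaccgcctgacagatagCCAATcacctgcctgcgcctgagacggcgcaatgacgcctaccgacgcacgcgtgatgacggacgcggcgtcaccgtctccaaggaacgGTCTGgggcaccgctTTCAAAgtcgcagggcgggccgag
Cep128: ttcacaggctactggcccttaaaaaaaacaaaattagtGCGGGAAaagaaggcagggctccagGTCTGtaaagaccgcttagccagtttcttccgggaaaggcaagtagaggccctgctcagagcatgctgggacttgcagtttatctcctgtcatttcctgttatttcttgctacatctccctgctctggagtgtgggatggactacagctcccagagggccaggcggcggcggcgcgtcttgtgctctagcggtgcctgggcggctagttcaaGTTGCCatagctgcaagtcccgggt
Cep164: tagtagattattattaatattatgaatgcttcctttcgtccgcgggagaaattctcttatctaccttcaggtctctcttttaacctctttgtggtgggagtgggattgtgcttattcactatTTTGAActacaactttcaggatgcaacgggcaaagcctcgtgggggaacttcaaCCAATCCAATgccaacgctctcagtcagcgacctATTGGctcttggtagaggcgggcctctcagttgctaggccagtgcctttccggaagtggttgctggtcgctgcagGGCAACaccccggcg
The Cep83 window holds none of the 5 motifs and is 75.7% G or C, against 58.3% for Sclt1, 54.7% for Cep128 and 49.3% for Cep164. The Sclt1 window holds 3 SMAD boxes, of which the first pair overlap by a base, with a CCAAT box before the start and a CHR just after it. The Cep128 window holds the E2F core, which no other member's window does and which 4.60% of 32851 promoter windows hold, with 1 SMAD box and 1 X-box core. The Cep164 window holds 3 CCAAT boxes, a CHR and an X-box core. Over the 16 windows of the 10 members, a CCAAT box was found in 12 windows, of 8 members, and in 37.4% of all promoter windows. A CHR was in 7 of the 16 windows, of 5 members, and in 17.9% of all windows. A SMAD box was in 4 of the 16, each of another member (49.6% of all windows), and an X-box core in 3 of the 16, likewise (12.5%). Neighbouring windows of Odf2 overlap, as do those of Ttbk2, so windows are not independent. A match describes the letters and is not a binding site.

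The genes beside Cep83 were read for a difference of the same size. In the RefSeq gene table Cep83os, a noncoding RNA gene on the opposite strand, directly precedes Cep83, and Plxnc1, which encodes a plexin receptor for semaphorins, directly follows it. Cep83os averaged 4.86 ± 0.309 in TRIM33 samples and 4.74 ± 0.249 in WT samples (SD, n = 6 each), a difference of 0.12 (SE 0.153). Plxnc1 averaged 7.68 ± 0.278 in TRIM33 samples and 7.38 ± 0.542 in WT samples, a difference of 0.30 (SE 0.226). The genotypes overlapped for both, and neither passed. Further out, Tmcc3 differed by -0.04 (SE 0.193), Gm4792 by -0.10 (SE 0.0957), Cradd, an adaptor of cell death signalling, by 0.12 (SE 0.121) and Socs2, a suppressor of cytokine signalling, by 0.30 (SE 0.129). None of these 6 neighbours passed (limma, adjusted p = 0.99998 for each), and Socs2 had an unadjusted p of 0.0347 in the limma fit. The pooled values hide unequal sets for Cradd, at -0.13 (SE 0.132) in the Y set and 0.37 (SE 0.152) in the Xist set. In the Xist set its genotypes did not overlap, as for 10.27% of all genes. Plxnc1 differed by 0.54 (SE 0.288) in the Y set and 0.06 (SE 0.126) in the Xist set. Neither gene passed in either set. Whether the probes of Cep83 and Cep83os tell the strands apart is not stated.

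**Figure D2:**
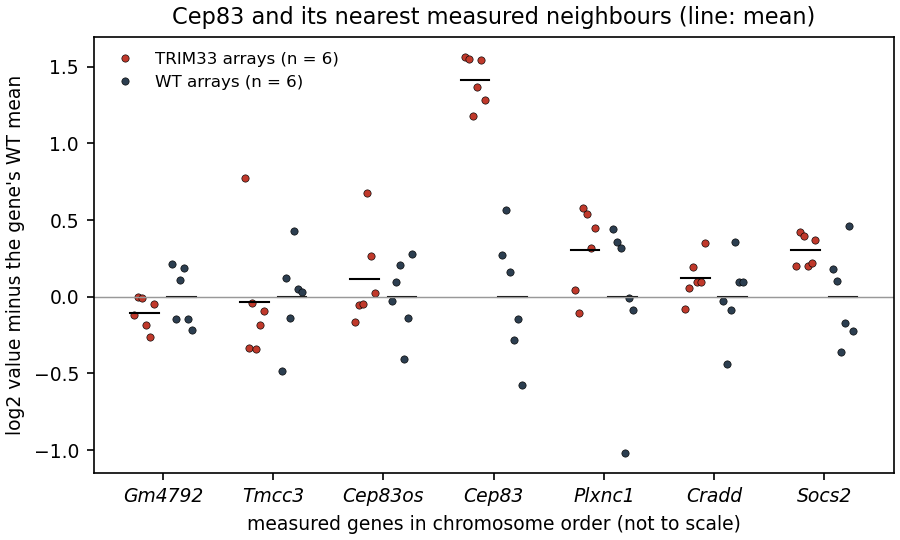
Values of Cep83 and its 3 nearest measured genes on each side, as the log2 value on each array minus that gene's WT mean, with TRIM33 left of WT and a line at each mean. Cep83 averages 1.41 above its WT mean on TRIM33 arrays, and the 6 neighbours lie between -0.10 and 0.30.

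By genotype the differences of the other 9 members ran from -0.19 to 0.38. Cep83 was chosen for its difference, so its larger value beside theirs is not a result. None of the 9 passed (limma, 0 of 9 at an unadjusted p under 0.05, against 3.07% of all genes). Blocked on array set, the fit called 9 genes (0.0387%), Cep83 among them and none of the other members. In that fit 1 of the 9, Sclt1, had an unadjusted p under 0.05 in limma, against 5.28% of all genes. The median difference of the 9 was -0.05, beside -0.01 over all genes.

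**Figure D3:**
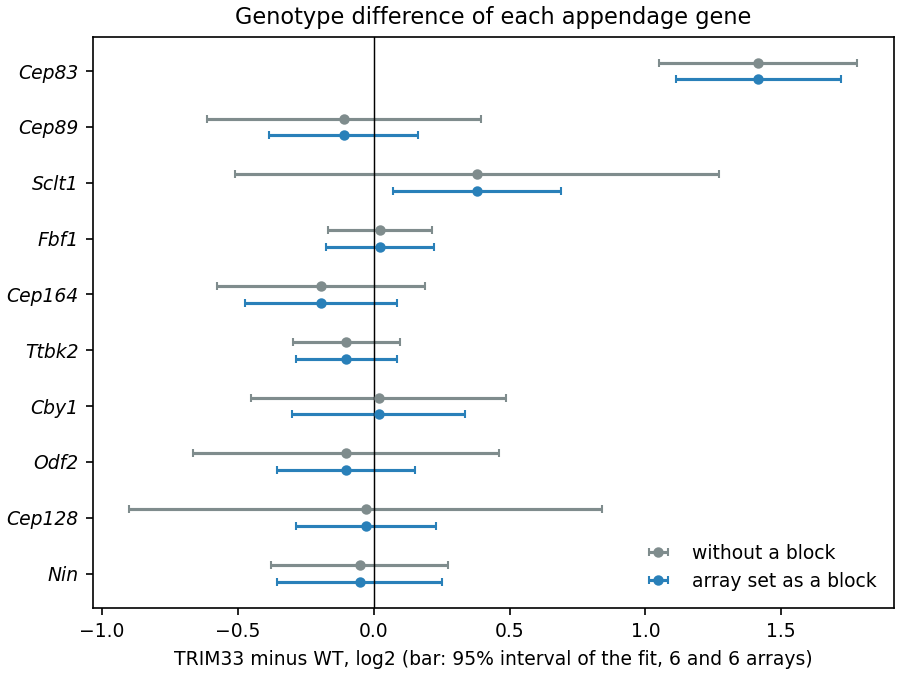
TRIM33 minus WT difference of each member on the log2 scale, with the 95% interval of the limma fit without a block above and blocked on array set below. The interval of Cep83 runs from 1.05 to 1.78 without a block, and those of the other 9 all include 0 without a block.

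Among the partners of CEP83 in the distal appendages, Cep89 read 4.53 to 5.84 with a median of 4.94 on TRIM33 arrays and 4.73 to 5.77 with a median of 5.10 on WT arrays. The difference was -0.11, with a 95% interval from -0.38 to 0.16 in the blocked fit, and the genotypes overlapped in both sets. Sclt1 read 4.43, 4.74 and 4.12 on the TRIM33 arrays of the Y set, against 3.77, 3.65 and 4.04 on the WT arrays of that set. In the Xist set it read 5.64, 5.84 and 5.26 in TRIM33 samples, against 5.50, 5.16 and 5.63 in WT samples. The genotypes did not overlap in the Y set and did in the Xist set. The WT values of the Y set lay below the array medians of 4.16 to 4.25, so they are dim. Over all arrays the difference of Sclt1 was 0.38 (SE 0.412; limma, adjusted p = 0.99998), and with the block its SE was 0.145 (limma, unadjusted p = 0.0195, adjusted p = 0.851). The highest Y-set value of Sclt1 came from TRIM33 replicate 2, and without that array the blocked difference was 0.29 (SE 0.136; limma, adjusted p = 0.969).

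Fbf1, whose product links the appendages to the ciliary membrane, was the steadiest member over the sets. Its values lay near the array medians of 4.16 to 4.25, and it alone of the members was not above the median gene level. Differences of dim genes are compressed, so steadiness at this level says little. It read 4.09 to 4.33 with a median of 4.20 in TRIM33 samples and 3.94 to 4.36 with a median of 4.24 in WT samples. Its difference was 0.02, with a 95% interval from -0.17 to 0.22 in the blocked fit.

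Cep164, which recruits TTBK2 to the distal appendages, gave unequal values in the sets. In the Y set it read 5.02, 5.04 and 4.999 in TRIM33 samples, against 4.57, 5.04 and 5.20 in WT samples. In the Xist set it read 4.37, 4.399 and 4.19 in TRIM33 samples, against 4.60, 5.02 and 4.75 in WT samples. In the Xist set TRIM33 samples were the lower without overlap, while the genotypes overlapped in the Y set. The difference was 0.08 (SE 0.166) in the Y set and -0.47 (SE 0.146; limma, adjusted p = 0.891) in the Xist set. The interaction was 0.55 (SE 0.225; limma, unadjusted p = 0.0292, adjusted p = 0.996), and did not pass. Without TRIM33 replicate 2 it was 0.54 (limma, unadjusted p = 0.0502). Besides Cep83, which the genotype contrast chose, Sclt1 was the member without overlap in the Y set, beside 10.04% of all genes. In the Xist set Cep164 and Ttbk2 were, beside 10.27% of all genes.

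Ttbk2, the kinase that clears the cap protein CP110 from the mother centriole, read 5.09 to 5.40 with a median of 5.19 in TRIM33 samples and 5.22 to 5.63 with a median of 5.27 in WT samples. Its difference was -0.10, with a 95% interval from -0.29 to 0.09 in the blocked fit. In the Xist set the TRIM33 arrays read 5.21, 5.09 and 5.12, all below 5.24, 5.27 and 5.32 in WT samples, a difference of -0.14. Cby1, whose product binds CEP164 and takes part in vesicle docking, read 6.34 to 7.54 with a median of 7.13 in TRIM33 samples and 6.60 to 7.57 with a median of 6.97 in WT samples. Its difference was 0.02, with a 95% interval from -0.30 to 0.34 in the blocked fit. TRIM33 replicate 2 gave the highest Y-set value of Cby1, 7.21, while the other Y-set arrays lay below it.

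The subdistal members showed no genotype difference that passed. Odf2, needed for both kinds of appendage, read 6.03 to 7.03 with a median of 6.72 in TRIM33 samples and 6.13 to 7.49 with a median of 6.68 in WT samples, a difference of -0.10 with a 95% interval from -0.35 to 0.15 in the blocked fit. Cep128 read 6.32 to 8.21 with a median of 7.19 in TRIM33 samples and 6.47 to 8.20 with a median of 7.20 in WT samples. Its difference was -0.03, with an interval from -0.29 to 0.23 in the blocked fit and from -0.90 to 0.84 without the block. The range of Cep128 within each genotype came from the sets, as described next. Nin read 8.34 to 9.11 with a median of 8.53 in TRIM33 samples and 8.21 to 8.87 with a median of 8.79 in WT samples, a difference of -0.05 with an interval from -0.35 to 0.25 in the blocked fit.

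**Figure D4:**
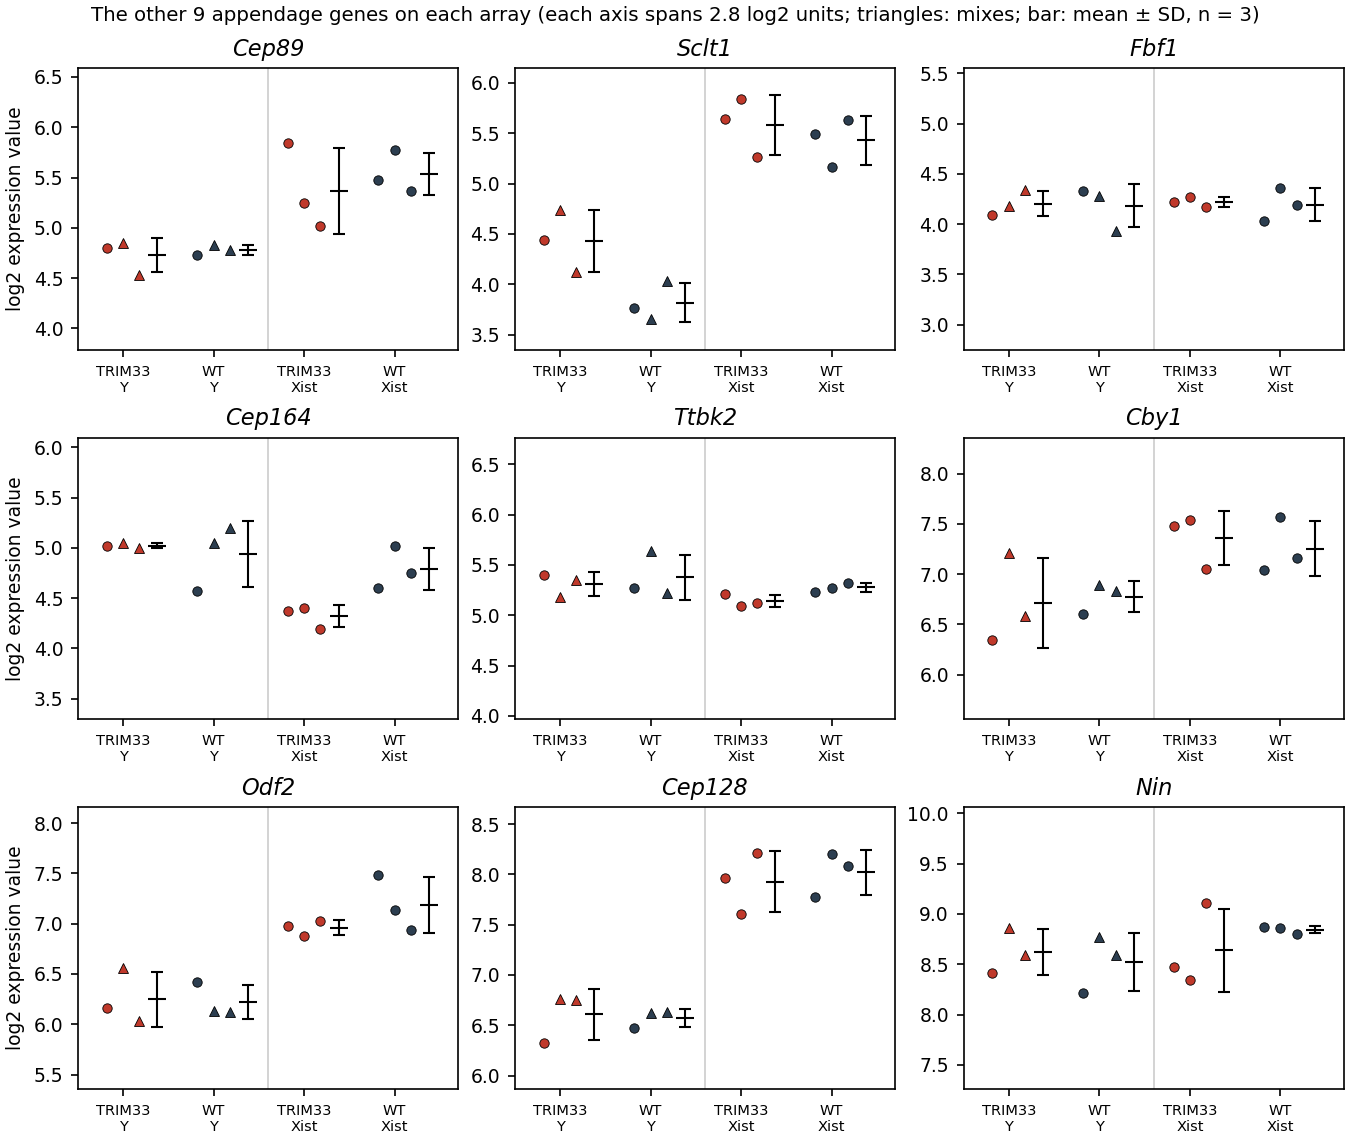
The other 9 members on each array, log2 expression value, with TRIM33 left of WT in each set, triangles for mixes, bars for the mean ± SD of 3 arrays, and each axis spanning the same number of log2 units. Cep89, Sclt1, Odf2 and Cep128 lie higher on all Xist-set arrays than on any Y-set array, in both genotypes.

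Between the array sets 4 of the 10 members did not overlap, all higher in the Xist set, against 14.0% of all genes in either direction and 7.45% in that direction. In the other direction 0 of 10 did, against 6.59% of all genes. The sets were formed from these values, so the differences are descriptions. Cep128 read 6.32 to 6.77 in the Y set and 7.61 to 8.21 in the Xist set, a difference of -1.38, Y set minus Xist set. Sclt1 read 3.65 to 4.74 in the Y set and 5.16 to 5.84 in the Xist set, a difference of -1.38. Odf2 read 6.03 to 6.56 in the Y set and 6.88 to 7.49 in the Xist set, a difference of -0.84. Cep89 read 4.53 to 4.85 in the Y set and 5.02 to 5.84 in the Xist set, a difference of -0.70. These members thus moved in both genotypes, with Cep128 at -1.32 in TRIM33 and -1.45 in WT samples and Sclt1 at -1.15 in TRIM33 and -1.61 in WT samples. Cby1 differed by -0.56, with overlap, and Nin by -0.17, Ttbk2 by 0.13 and Fbf1 by -0.01. Cep164 ran the other way, by 0.42 over all arrays, with 0.70 in TRIM33 and 0.15 in WT samples.

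**Figure D5:**
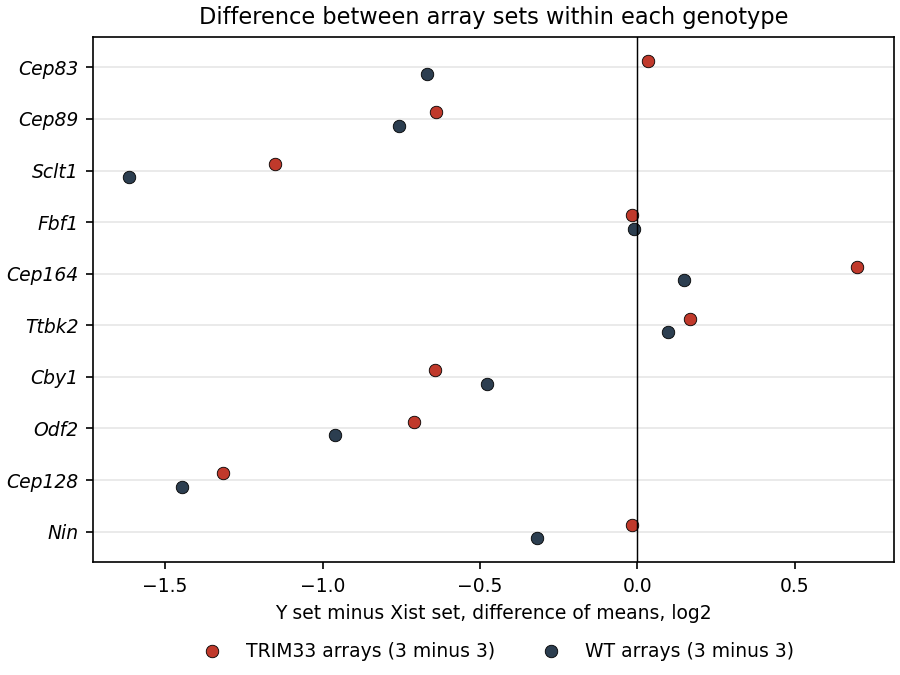
Difference of means between the array sets (Y set minus Xist set, log2) for each member, computed within TRIM33 and within WT arrays, 3 arrays against 3. Cep83 is at 0.03 in TRIM33 and -0.67 in WT samples, and Cep128 and Sclt1 lie below -1 in both genotypes.

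All 18 measured cell cycle genes were higher in the Xist set without overlap. The 20 further appendage genes mostly overlapped between the sets, with 1 higher on Y-set arrays and 2 on Xist-set arrays without overlap and a median difference of 0.017. Of 28 genes of centriole assembly and length, 1 was higher on Y-set arrays and 16 on Xist-set arrays without overlap, with a median difference of -0.70. Of 21 genes of the pericentriolar material, the matrix that nucleates microtubules, 11 were higher in the Xist set without overlap. Of 38 genes of the ciliary vesicle and ciliary transport, 3 were higher in each set. Of 17 genes of multiciliated cells, 0 were free of overlap between the sets. Neutrophil markers moved too, with 7 of 12 higher in the Xist set without overlap, and the list mean ran from 4.96 to 5.98 in the Y set and from 6.98 to 7.50 in the Xist set. Other markers ran the opposite way. Erythroid genes were higher in the Y set without overlap in 3 of 4, with a list mean of 6.91 to 8.25 in the Y set and 3.37 to 4.003 in the Xist set, and platelet genes in 3 of 5, at 4.99 to 6.49 and 3.90 to 4.06. Ly6C-low monocyte genes were higher in the Y set in 6 of 9, with a mean of 7.25 to 8.12 in the Y set and 6.15 to 6.51 in the Xist set, and T cell genes in 3 of 6. Genes of the sorted Ly6C-high monocytes were so in 3 of 8, with a list mean of 10.9 to 11.3 in the Y set and 10.4 to 10.6 in the Xist set. The part of these markers in the members' differences between sets was not tested, and in a bulk sample a change in the share of a cell type cannot be told apart from a change of RNA per cell.

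Beyond the 10 members, the genes around the centriole did not pass by genotype. The counts of unadjusted p below stand beside 3.07% of all genes without the block and 5.28% with it. Of 20 further appendage genes 0 passed and 0 had an unadjusted p under 0.05 in limma, with the smallest p for Dzip1, a gene of cilium assembly, at 0.14 (SE 0.0941), and Inpp5e, a ciliary phosphoinositide phosphatase, at -0.13 (SE 0.108). Dzip1 was dim, at 2.78 to 3.23. Of the 28 assembly genes 0 passed and 1 had an unadjusted p under 0.05 in limma: Cetn3, a centrin, averaged 9.23 ± 0.182 in TRIM33 samples and 8.94 ± 0.235 in WT samples (SD, n = 6 each). That difference was 0.29 (SE 0.121; limma, adjusted p = 0.99998, and 0.699 with the block). Cetn2 differed by 0.17 (SE 0.126).

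Of the 21 pericentriolar genes 0 passed and 0 had an unadjusted p under 0.05 in limma, with Crocc, the gene of the rootlet protein, at -0.10 (SE 0.0812) and Tubgcp5, of the gamma-tubulin complex, at -0.16 (SE 0.140). Of the 38 ciliary genes 0 passed and 1 had an unadjusted p under 0.05 in limma, against 3.07% of all genes. That gene, Ift88, of the intraflagellar transport particle, averaged 4.10 ± 0.0677 in TRIM33 samples and 3.92 ± 0.108 in WT samples. It was dim, at 3.76 to 4.18. Ift52, of the same particle, differed by 0.14 (SE 0.0863). With the block the unadjusted count was 2 of 38, against 5.28% of all genes. Of the 17 multiciliated genes 0 passed and 0 had an unadjusted p under 0.05 in limma, with Deup1 at 0.22 (SE 0.108) and Foxj1, the master regulator of motile cilia, at -0.17 (SE 0.0891). Foxj1 was dim, at 3.29 to 3.91. The median differences of the 5 lists, in this order, were -0.03, 0.01, -0.08, 0.04 and -0.06, beside -0.01 over all genes.

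Markers of the cells a sort could hold did not pass by genotype either. Of the neutrophil list, 0 of 12 genes passed and the list mean ran from 4.96 to 7.50 in TRIM33 samples and from 5.04 to 7.42 in WT samples. The lists of Ly6C-high monocytes, Ly6C-low monocytes, B cells, T cells, natural killer cells, erythroid cells and platelets likewise had 0 genes past the threshold, without and with the block. Without the block 1 of 6 natural killer genes had an unadjusted p under 0.05 in limma, against 3.07% of all genes. All 6 natural killer genes had differences below 0, from -0.50 to -0.06 with a median of -0.22, as did 12798 of all 23279 genes. This was not particular to that list. Below 0 were also 7 of 9 Ly6C-low monocyte genes (median -0.17), 5 of 6 T cell genes (median -0.16), 3 of 5 B cell genes and 2 of 4 erythroid genes. Above 0 were 8 of 12 neutrophil genes, 5 of 8 Ly6C-high monocyte genes and 3 of 5 platelet genes. The natural killer list mean did not overlap in the Y set, at 4.29 to 4.45 in TRIM33 samples and 4.55 to 4.69 in WT samples, and did in the Xist set, at 3.78 to 4.35 in TRIM33 samples and 4.21 to 4.501 in WT samples. Whether these markers have a part in the members' values was not tested.

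The genes whose pattern was most like that of Cep83 over the 12 arrays were ranked by Pearson's r, as a description over arrays that share genotype and set. Besides 1 predicted gene, the highest were Stfa1 (r = 0.90), 4921509O07Rik (0.89), Atg4a (0.86), Ufc1 (0.86) and Snhg3 (0.85). Of these 4921509O07Rik was dim, at 2.24 to 2.64. With each set's mean subtracted the highest were Apcdd1 (0.97), Oas1g (0.95), Yeats4 (0.95), Atp1b3 (0.94) and Stfa1 (0.93). Lyz1, a lysozyme gene on the same chromosome as Cep83, came next at 0.93, and stood at 0.71 over the arrays. Whether the LyzCre locus has a part in the values of Cep83 was not tested. Trim33 was the gene with the lowest r in both rankings, at -0.89 and -0.91. Among the members, Sclt1 came nearest to Cep83, at 0.46 over the arrays and 0.67 with set means subtracted. The other 8 members lay between -0.37 and 0.21 over the arrays. The pattern of Cep83 holds the genotype difference that chose it, so these values are not a result apart from the genotype differences. The closest pair among the members with set means subtracted was Cep128 and Nin, at 0.72, picked as the highest of all pairs. Without the subtraction that pair stood at 0.50, and the closest was Odf2 and Cep128, at 0.87.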

How the data were processed

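Gene expression in sorted mouse blood monocytes was measured on 12 single-colour arrays, 6 labelled TRIM33 and 6 labelled WT, with cDNA amplified from 900 pg of total RNA per the labels' protocols. The deposited values are log2 expression values made by the authors, 1 per Entrez gene feature and array. The submitters' processing notes name RMA and Partek, without versions. Neither a chip definition nor a genome build nor a batch correction is stated. RMA gives all arrays 1 distribution, so a shift common to most genes would be lost, and it compresses differences of dim genes. Arrays have no counting depth, so the number of arrays limits the precision.

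Of 24479 features, 23281 carried a gene symbol and 1198 none. For 2 symbols with several features the one of higher mean was kept, which left 23279 genes. Symbols were checked by Entrez number in a RefSeq table of GRCm38.p6 (23156 matched, 0 changed), used only for names and neighbours. Promoter windows came from RefSeq on the same assembly. Genotype was tested with limma 3.58.1 in R 4.3.3 (lmFit and eBayes, all genes, no filter, no covariate) at a Benjamini-Hochberg adjusted p of 0.05, and beside it with the array set as a block, within each set, and as an interaction of genotype and set. Other choices tried were normalization, filters, variance models, preparation, the mix number as a block, and each array left out. Tables and figures used Python 3.11.15, pandas 2.3.3, scipy 1.17.1 and matplotlib 3.10.9.

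Genes named beyond the members were the 2 with the smallest p in each centriole or cilium list, the 3 nearest measured genes on each side of Cep83, and the 5 most correlated with it. Lyz1 was looked up because the mice are LyzCre. The 5 promoter motifs were chosen after the values were seen. The members and lists were chosen with earlier results of these data known. Each fit was tested on simulated data before use.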

Additional observations from a re-analysis of the deposited data

Results flagged for a closer look

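Ttbk2 on WT replicate 5 read 5.63 on the log2 scale, while the other 5 WT arrays lay between 5.22 and 5.32. The gap to the nearest array was 0.753 of the range of the group, above Dixon's 95% critical value for 6 arrays. Of 22 groups examined (10 members and Trim33 in each genotype) this was the 1 found, and chance gives about 1 in 20. WT replicate 5 is titled as a mix.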

How the results depend on the processing

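The difference of Cep83 was above 0 under the 13 alternatives and in each fit without 1 array. It was 1.77 in the Y set alone and 1.06 in the Xist set alone. With an array left out it ran from 1.30 to 1.53, and from 1.32 to 1.51 with the block as well. This contrast chose Cep83 and its genotypes did not overlap, so no subset of the arrays could reverse the sign. These values are a description and support nothing. Cep83 was among the genes called except in the arrays not titled as mixes, the mixes alone, the Xist set alone and the linear model without moderation. The number of genes called, 5, became 9 with the array set as a block, 0 in the 8 arrays not titled as mixes (limma, 565 at an unadjusted p under 0.05), 8 in the Y set, 3 in the Xist set and 3 without moderation, and ran from 5 to 9 without 1 array (9 without TRIM33 replicate 4) and from 9 to 15 with the block (15 without the same array); the cause was not tested. The other members and the centriole and cilium lists gave 0 calls in each of these. The interaction called 1 gene, 0 among genes above the median level, and 0 to 2 without 1 array (2 without TRIM33 replicate 3, 0 without TRIM33 replicates 4 or 6 or WT replicates 2, 3 or 6).

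Small differences changed sign: Fbf1 was at -0.041 in the arrays not titled as mixes. In the mixes alone Odf2 was at 0.16, Cep128 at 0.13 and Nin at 0.048. In the Y set alone Cep164 was at 0.082, Odf2 at 0.024, Cby1 at -0.064, Cep128 at 0.036 and Nin at 0.098. Without 1 array Cep89 ran from -0.27 to 0.013, Fbf1 from -0.028 to 0.058, Odf2 from -0.22 to 0.055, Cby1 from -0.082 to 0.16, Cep128 from -0.22 to 0.16 and Nin from -0.15 to 0.0062. With the block as well Fbf1 ran from -0.032 to 0.060, Cby1 from -0.084 to 0.11, Cep128 from -0.086 to 0.049 and Nin from -0.14 to 0.031. Titles number only the mixes; as a replicate block the mix number gave 6 genes and a Cep83 difference of 1.41 (SE 0.144), and left the calls of the members as they were. The deviations of same-numbered mixes correlated at r = 0.12 over all genes, from 2 pairs, too few to show a pairing. No depth can be given for array values. The SE of the members' differences ran from 0.0888 (Fbf1) to 0.412 (Sclt1) without the block.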
